A study of Rattus norvegicus with 12 samples.

Results

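The transcripts of 10 genes that restrain MAP kinase signalling were measured in a rat kidney fibroblast line: the dual-specificity phosphatase genes Dusp1, Dusp4, Dusp5, Dusp6 and Dusp10, the Sprouty genes Spry1, Spry2 and Spry4, and the Sprouty-related genes Spred1 and Spred2. They were taken by gene name for their known role, with earlier results of these data known. Each of the 10 was found once in the deposited table of 14275 genes, not all of which have a symbol. All 10 passed the filter on low counts, which left 14601 of 43360 genes for testing. The cells were NRK-49F, an established line of normal rat kidney fibroblasts, and poly(A) RNA was sequenced from 12 libraries in 4 groups of 3. The groups were human HDAC1-Flag plasmid with TGFB1, empty pcDNA3.1 vector with TGFB1, HDAC1-Flag plasmid with vehicle, and empty vector with vehicle. HDAC1, a histone deacetylase, takes acetyl groups off histones and is part of gene-repressing complexes. TGFB1 is the cytokine that drives fibroblasts towards matrix production, and it was given at 2 ng/ml for 24 hours. All 4 groups were transfected and kept in medium with 0.5% serum, so the growth factor supply was low throughout. The labels give neither the share of cells that took up the plasmid nor whether replicates were separate cultures, so p-values measure the spread between libraries, which may be technical.

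Growth factor receptors signal through RAS and the kinases RAF and MEK to ERK, while stress and cytokine receptors act more through JNK and p38. Active MAP kinases switch on genes of their own inhibitors, which makes these genes both a brake and a readout of the pathway. The dual-specificity phosphatases strip the activating phosphates from MAP kinases: DUSP1, DUSP4 and DUSP5 work in the nucleus, DUSP6 holds ERK in check in the cytoplasm, and DUSP10 prefers JNK and p38. Sprouty proteins act upstream, between receptor and RAS or RAF, and SPRED proteins bring the RAS inhibitor neurofibromin to the membrane. The data are transcript levels only, and no kinase activity was measured.

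Library totals ran from 18397093 to 36652084 counts. The 10 genes had between 67 counts (Spry1) and 5007 counts (Dusp6) in a library, so that the relative counting error alone was at most 12.2% for Spry1 and 2.14% for Dusp6. Levels are given as CPM, counts scaled to a common library size after TMM normalization, and they are compared between groups for 1 gene at a time, not between genes. Hdac1 was at 375 to 501 CPM in the 6 libraries with the plasmid and at 205 to 290 CPM in the 6 with the empty vector. A related gene listed as Hdac1l was at 802 to 1367 CPM with the plasmid and at 0.530 to 15.1 CPM with the empty vector. Reads of the human plasmid and of the cells' own genes cannot be told apart in these counts. Of 9 fibroblast markers, 8 were tested, with Col1a1, Col1a2 and Vim the highest, whereas Dcn did not pass 0.857 CPM and Thy1 was not among the named genes. Markers of kidney epithelium, endothelium and leukocytes were low where they were found by name. The kidney epithelium list summed to at most 1.21 CPM, from Slc34a1 alone of 6 genes. The endothelial list (4 of 6 tested) summed to between 2.61 and 5.31 CPM, and the leukocyte list to between 1.90 and 10.1 CPM, from Cd68 alone of 6. The other genes of these lists were not among the named genes, so their levels are missing from the sums. Heart transcripts differed between libraries. All 12 of them were tested, and their sum was 120 to 139 CPM with HDAC1 and TGFB1, 364 to 461 CPM with empty vector and TGFB1, 196 to 382 CPM with HDAC1 and vehicle, and 55.2 to 343 CPM with empty vector and vehicle. The lowest value was that of empty vector vehicle replicate 1. HDAC1 vehicle replicate 1 stood apart in another way, with the immediate early genes Fos, Fosb, Egr2 and Egr3 far above the other libraries (Fos at 58.7 CPM, against 1.43 to 3.13 CPM). Jun (392 CPM) and Egr1 (32.0 CPM) were also highest there, by a smaller ratio. Junb (170 CPM), Ier2 (31.3 CPM) and Ier3 (121 CPM) lay within the range of the other libraries. The brain list, with 9 of 10 genes tested and Gfap not among the named genes, summed to 65.2 to 72.5 CPM with HDAC1 and TGFB1, 109 to 120 CPM with empty vector and TGFB1, 118 to 159 CPM with HDAC1 and vehicle, and 86.8 to 144 CPM with empty vector and vehicle. In these bulk libraries, fewer cells of a type and less RNA per cell cannot be told apart.

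**Figure D1:**
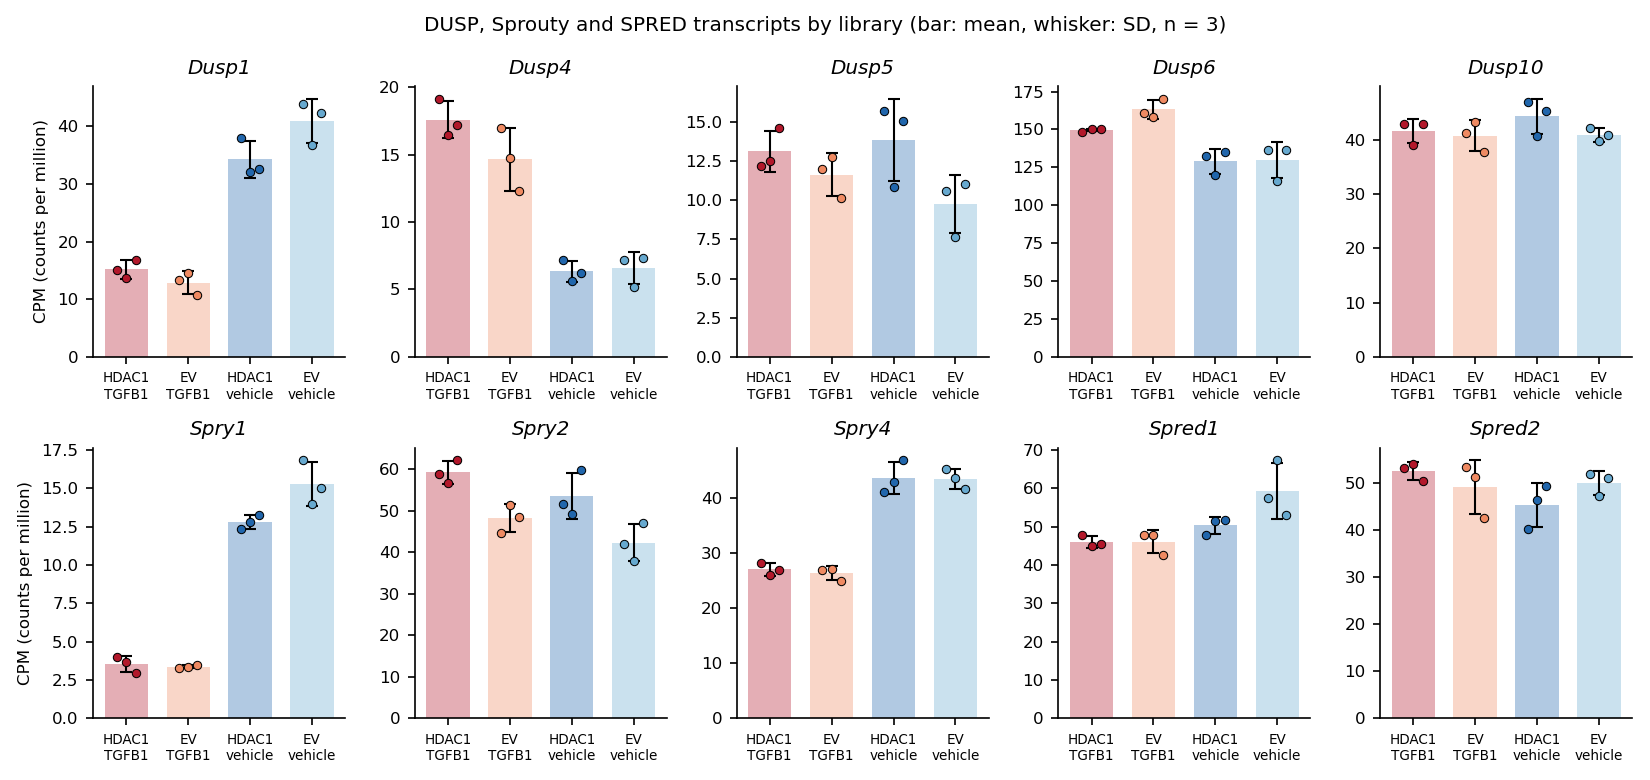
Each panel plots 1 gene in CPM on the vertical axis; points are the 3 libraries of a group in replicate order, bars are means and whiskers are SD (EV, empty vector). Dusp1, Spry1 and Spry4 were lower and Dusp4 higher in every TGFB1 library than in every vehicle library, while Dusp10 stayed between 37.7 and 46.9 CPM throughout.

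The response to TGFB1 split the 10 genes. In empty vector cells Dusp1, Spry1, Spry4 and Spred1 fell and Dusp4 and Dusp6 rose, while Dusp5, Dusp10, Spry2 and Spred2 were not called. In HDAC1 cells Dusp1, Spry1 and Spry4 fell and Dusp4, Dusp6 and Spred2 rose. Without HDAC1 vehicle replicate 1, all of these but Spred2 were called in HDAC1 cells (Dusp1 -1.09, Spry1 -1.88, Spry4 -0.73, Dusp4 1.57, Dusp6 0.24, and Spred2 0.14). Calls rest on the quasi-likelihood test of edgeR in a fit of 12 libraries, with a threshold of 0.05 on p-values adjusted by Benjamini and Hochberg across every gene in the test. TGFB1 altered much of the transcriptome: 50.9% of all genes were called with the empty vector and 49.1% with HDAC1, so the 6 of 10 feedback genes called in each setting lie near that background. The 10 genes had a median log2 fold change of -0.02 in empty vector cells and -0.09 in HDAC1 cells, against 0.01 and -0.02 over all genes tested.

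Spry1, which blocks the receptor-to-RAS step, had the largest TGFB1 response of the 10 genes. It was at 3.25, 3.38 and 3.47 CPM in empty vector libraries with TGFB1, against 16.8, 14.0 and 15.03 CPM in empty vector libraries with vehicle. In HDAC1 cells it was at 4.03, 3.66 and 2.96 CPM with TGFB1, against 12.4, 12.8 and 13.3 CPM with vehicle. Every TGFB1 library lay below every vehicle library. The log2 fold change was -2.18 ± 0.13 (SE) with the empty vector, a level 4.54-fold lower (edgeR adjusted p = 1.1e-11), and -1.86 ± 0.13 with HDAC1, 3.62-fold lower (edgeR adjusted p = 1.25e-10). Without empty vector vehicle replicate 1, the library with the fewest heart transcripts, the first of these was -2.12.

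Dusp1 encodes a nuclear phosphatase, also known as MKP-1, that is itself an immediate early gene in many cells. It was at 13.3, 14.6 and 10.7 CPM with the empty vector and TGFB1, against 43.9, 36.7 and 42.3 CPM with the empty vector and vehicle. With HDAC1 it was at 15.01, 13.7 and 16.9 CPM with TGFB1, against 38.04, 32.1 and 32.7 CPM with vehicle. Here too the TGFB1 and vehicle libraries did not overlap. The log2 fold change was -1.67 ± 0.11 with the empty vector (3.18-fold lower, edgeR adjusted p = 1.21e-10) and -1.18 ± 0.11 with HDAC1 (2.27-fold lower, edgeR adjusted p = 1.93e-08). From low to high, the group means were 12.9 CPM with empty vector and TGFB1, 15.2 CPM with HDAC1 and TGFB1, 34.3 CPM with HDAC1 and vehicle, and 41.0 CPM with empty vector and vehicle. Within each treatment the HDAC1 and empty vector libraries overlapped.

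Spry4, a relative of Spry1 that also restrains signalling towards ERK, had a smaller fold change. It was at 26.9, 27.1 and 24.9 CPM in empty vector libraries with TGFB1, against 45.1, 43.5 and 41.6 CPM with vehicle. In HDAC1 libraries it was at 28.1, 25.9 and 26.9 CPM with TGFB1, against 41.1, 42.8 and 46.8 CPM with vehicle. The 6 TGFB1 libraries lay within 24.9 to 28.1 CPM and the 6 vehicle libraries within 41.1 to 46.8 CPM, whichever plasmid was used. The log2 fold change was -0.72 ± 0.07 with the empty vector (edgeR adjusted p = 7.29e-08) and -0.69 ± 0.07 with HDAC1 (edgeR adjusted p = 1.47e-07).

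Spred1, the SPRED member best known for its link to neurofibromin, had a smaller response. It was at 47.9, 47.8 and 42.5 CPM with the empty vector and TGFB1, against 57.4, 67.3 and 53.0 CPM with the empty vector and vehicle, without overlap. Its log2 fold change was -0.36 ± 0.08 (edgeR adjusted p = 0.000937), and -0.39 without empty vector vehicle replicate 1. With HDAC1 it was at 47.8, 44.8 and 45.5 CPM with TGFB1, against 47.9, 51.4 and 51.7 CPM with vehicle. These groups did not overlap either, although the lowest vehicle library and the highest TGFB1 library were close. That difference was not called (log2 fold change -0.13, 95% interval -0.30 to 0.04, edgeR adjusted p = 0.199).

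Dusp4, a nuclear phosphatase of ERK, JNK and p38, moved opposite to Dusp1. It was at 17.0, 14.7 and 12.3 CPM in empty vector libraries with TGFB1, against 7.20, 5.19 and 7.37 CPM with vehicle. In HDAC1 libraries it was at 19.1, 16.5 and 17.2 CPM with TGFB1, against 7.16, 5.66 and 6.19 CPM with vehicle. All TGFB1 libraries lay above all vehicle libraries. The level was 2.21-fold higher with the empty vector (log2 fold change 1.14 ± 0.14, edgeR adjusted p = 7.77e-07) and 2.75-fold higher with HDAC1 (1.46 ± 0.14, edgeR adjusted p = 2.03e-08).

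Dusp6, the cytoplasmic ERK phosphatase, rose slightly. It was at 161, 158 and 170 CPM with the empty vector and TGFB1, against 137, 116 and 137 CPM with the empty vector and vehicle. With HDAC1 it was at 149, 150.3 and 149.99 CPM with TGFB1, against 132, 120 and 135 CPM with vehicle. In both settings the TGFB1 libraries lay above the vehicle libraries. The log2 fold change was 0.33 ± 0.07 with the empty vector (edgeR adjusted p = 0.000386) and 0.21 ± 0.07 with HDAC1 (edgeR adjusted p = 0.013). The rise in HDAC1 cells was the less firm of the pair: its call ended with upper quartile scaling (0.14), without HDAC1 vehicle replicate 2 (0.135) and without HDAC1 TGFB1 replicates 1, 2 or 3 (0.19, 0.18 and 0.18).

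Spred2, a close relative of Spred1, was called only in HDAC1 cells, and only just. It was at 53.0, 54.0 and 50.4 CPM with HDAC1 and TGFB1, against 40.2, 46.2 and 49.2 CPM with HDAC1 and vehicle (log2 fold change 0.22 ± 0.09, edgeR adjusted p = 0.0421). The groups did not overlap. In empty vector cells it was at 53.3, 51.1 and 42.5 CPM with TGFB1, against 51.8, 47.1 and 51.0 CPM with vehicle, and these libraries overlapped (-0.03, 95% interval -0.21 to 0.15). The test of the difference between the responses was not passed (0.25 ± 0.12, edgeR adjusted p = 0.404). The call in HDAC1 cells ended with upper quartile scaling (0.14), with a filter at a mean of 1 CPM (0.19), without HDAC1 vehicle replicates 1 or 2 (0.14 and 0.21), without HDAC1 TGFB1 replicates 1, 2 or 3 (0.18, 0.16 and 0.22) and without empty vector TGFB1 replicate 1 (0.19).

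The remaining phosphatase and Sprouty genes were not called for TGFB1. Dusp10, the phosphatase of JNK and p38, had log2 fold changes of -0.01 with the empty vector (95% interval -0.16 to 0.15) and -0.09 with HDAC1 (-0.25 to 0.06). Dusp5, the nuclear ERK phosphatase, had 0.25 (-0.07 to 0.56) and -0.08 (-0.38 to 0.22). For both genes the libraries of the 2 treatments overlapped in either setting. Spry2 was at 0.18 with the empty vector (95% interval 0.00 to 0.36, edgeR adjusted p = 0.0876) and 0.15 with HDAC1 (-0.03 to 0.32, edgeR adjusted p = 0.165). It was called without empty vector vehicle replicate 3 in the first setting (0.27) and without HDAC1 vehicle replicate 3 in the other (0.24). Of the 12 heart transcripts 0 were called for TGFB1 under either plasmid, but their sums did not overlap between treatments (120 to 139 CPM with TGFB1 and 196 to 382 CPM with vehicle in HDAC1 cells, 364 to 461 CPM with TGFB1 and 55.2 to 343 CPM with vehicle in empty vector cells). Of 9 brain transcripts, 5 fell and 0 rose with TGFB1 in HDAC1 cells (median log2 fold change -1.17, sums of 65.2 to 72.5 CPM with TGFB1 and 118 to 159 CPM with vehicle), and 1 fell and 1 rose in empty vector cells. Cd68 fell with TGFB1 under both plasmids (-1.50 in empty vector cells and -1.33 in HDAC1 cells). Of 4 endothelial genes tested, 3 fell and 1 rose with TGFB1 in HDAC1 cells, and 1 fell and 0 rose in empty vector cells. The part of these transcripts in the results was not tested.

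**Figure D2:**
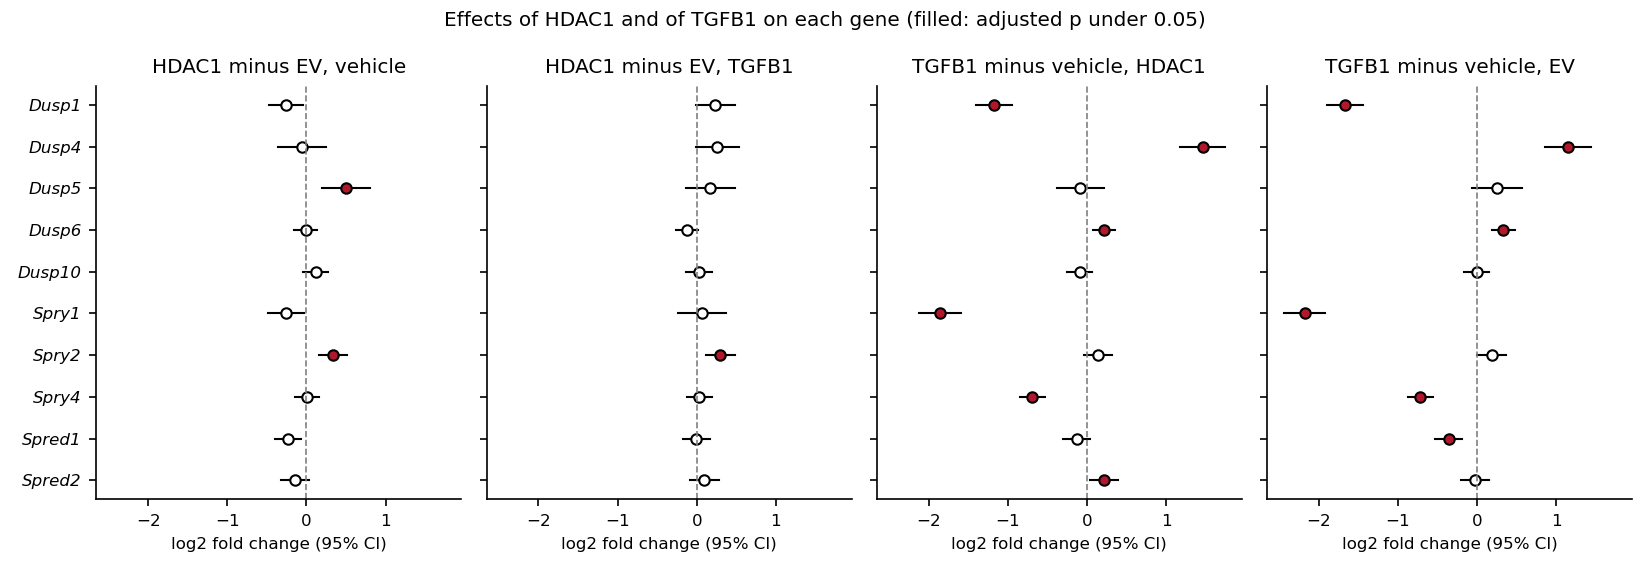
Log2 fold changes (points) with 95% intervals (lines) are drawn for the 10 genes in 4 comparisons, filled where the edgeR adjusted p was under 0.05. The TGFB1 panels hold 6 filled points each, from -2.18 (Spry1) to 1.46 (Dusp4), and the HDAC1 panels hold 2 in vehicle and 1 with TGFB1, none beyond 0.50.

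The promoter windows of the 3 genes that fell most with TGFB1 are shown with that of Dusp5, which was called higher with HDAC1, to place known signal-response motifs. The windows hold 250 bases before and 50 after the annotated start (RefSeq, build GRCr8, written along the gene's strand). Capitals mark matches on either strand to 6 motifs: the cyclic AMP response element TGACGTCA (CRE), its core TGACG, the AP-1 site TGACTCA, the serum response or CArG box, the ETS site CCGGAAG and the SMAD palindrome GTCTAGAC. A full CRE contains its core on each strand.
Dusp1 (chr10:17184603-17184902, plus strand): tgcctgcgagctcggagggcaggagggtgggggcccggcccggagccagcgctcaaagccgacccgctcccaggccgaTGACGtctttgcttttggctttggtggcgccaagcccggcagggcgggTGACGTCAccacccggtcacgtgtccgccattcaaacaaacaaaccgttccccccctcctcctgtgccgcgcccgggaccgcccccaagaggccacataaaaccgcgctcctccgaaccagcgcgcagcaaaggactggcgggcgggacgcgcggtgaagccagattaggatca
Spry1 (chr2:122485097-122485396, plus strand): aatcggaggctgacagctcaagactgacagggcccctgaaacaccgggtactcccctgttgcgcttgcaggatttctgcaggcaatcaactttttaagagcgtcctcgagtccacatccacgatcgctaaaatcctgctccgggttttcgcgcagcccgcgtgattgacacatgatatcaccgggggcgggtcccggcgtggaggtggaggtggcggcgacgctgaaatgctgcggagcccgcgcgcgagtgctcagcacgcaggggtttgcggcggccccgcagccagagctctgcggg
Spry4 (chr18:30702497-30702796, minus strand): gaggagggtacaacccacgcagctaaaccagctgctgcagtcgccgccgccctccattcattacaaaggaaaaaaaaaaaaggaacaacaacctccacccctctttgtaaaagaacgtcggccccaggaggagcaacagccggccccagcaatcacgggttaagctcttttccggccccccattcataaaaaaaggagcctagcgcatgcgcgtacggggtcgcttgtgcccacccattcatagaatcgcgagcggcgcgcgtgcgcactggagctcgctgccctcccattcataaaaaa
Dusp5 (chr1:262543524-262543823, plus strand): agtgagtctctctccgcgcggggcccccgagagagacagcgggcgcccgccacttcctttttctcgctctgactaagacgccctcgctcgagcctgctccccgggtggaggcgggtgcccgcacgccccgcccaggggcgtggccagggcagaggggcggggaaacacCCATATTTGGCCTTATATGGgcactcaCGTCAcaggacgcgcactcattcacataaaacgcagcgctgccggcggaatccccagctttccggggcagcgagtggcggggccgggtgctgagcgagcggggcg

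The Dusp1 window held 1 full CRE starting 124 bases before the start, and a further core 172 bases before it. The Dusp5 window held 2 adjacent CArG boxes, starting 82 and 72 bases before the start, and 1 core at 55 bases. The Spry1 and Spry4 windows held none of the 6. Among 33469 windows of rat genes, 1.83% held the full CRE, 21.2% its core, 1.64% a CArG box, 4.63% the AP-1 site, 8.75% the ETS site and 0.197% the SMAD palindrome. Windows were matched for 9 of the 10 genes, all but Dusp4, with 2 windows for Spry2. Of these 9 genes, the full CRE was in 1, the core in 4 (Dusp1, Dusp5, Spry2 and Spred2), the CArG box in 1, and the AP-1, ETS and SMAD letters in 0. These are letter matches, and no binding was measured.

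HDAC1 overexpression touched few of the 10 genes. In vehicle, Dusp5 and Spry2 rose and none fell; with TGFB1, Spry2 rose and none fell. Over all genes 14% were called in vehicle and 6.53% with TGFB1, so 2 of 10 and 1 of 10 are close to the background. The median log2 fold change of the 10 genes was -0.03 in vehicle and 0.08 with TGFB1, against -0.01 and -0.00 over all genes tested. The empty vector vehicle libraries serve both this comparison in vehicle and the TGFB1 comparison with the empty vector, so these are not independent. Without HDAC1 vehicle replicate 1, the library with high Fos, Spry2 was called in vehicle (0.38, edgeR adjusted p = 0.0202) and Dusp5 was not (0.41, edgeR adjusted p = 0.129). Cd68 was lower with HDAC1 in vehicle (5.47 CPM with HDAC1 and 9.31 CPM with the empty vector, log2 fold change -0.75, edgeR adjusted p = 0.0045), and its part in these results was not tested. Of 8 fibroblast markers tested, 4 fell and 1 rose with HDAC1 in vehicle, and their part was not tested either.

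Spry2, the Sprouty member most studied as an inhibitor of receptor signalling, was higher with HDAC1 under both treatments. With TGFB1 it was at 58.9, 56.8 and 62.2 CPM in HDAC1 libraries, against 44.7, 51.4 and 48.6 CPM in empty vector libraries. In vehicle it was at 51.6, 49.3 and 59.9 CPM in HDAC1 libraries, against 42.1, 37.95 and 47.1 CPM in empty vector libraries. The lowest HDAC1 library exceeded the highest empty vector library in each treatment. The level was 22.9% higher with TGFB1 (log2 fold change 0.30 ± 0.09, edgeR adjusted p = 0.0431) and 26.1% higher in vehicle (0.34 ± 0.09, edgeR adjusted p = 0.0115). The difference between these effects was -0.04 (95% interval -0.29 to 0.22, edgeR adjusted p = 0.939).

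Both Spry2 calls ended when certain single libraries were left out. In vehicle this happened without HDAC1 vehicle replicate 3 (0.26) or empty vector vehicle replicate 2 (0.28), and it stayed without empty vector vehicle replicate 1 (0.33). With TGFB1 the call ended without HDAC1 TGFB1 replicates 1, 2 or 3 (0.30, 0.32 and 0.26) and without empty vector TGFB1 replicates 1 or 3 (0.24 and 0.30), with edgeR adjusted p up to 0.172. Beside this comparison, heart transcripts summed to 120 to 139 CPM with HDAC1 and TGFB1 and to 364 to 461 CPM with empty vector and TGFB1, and their part in it was not tested. In vehicle the heart sums were 196 to 382 CPM with HDAC1 and 55.2 to 343 CPM with the empty vector.

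Dusp5, whose product dephosphorylates ERK in the nucleus, was higher with HDAC1 in vehicle. It was at 15.7, 10.9 and 15.04 CPM in HDAC1 libraries, against 10.6, 7.63 and 11.1 CPM in empty vector libraries. The groups overlapped, since HDAC1 replicate 2 lay below empty vector replicate 3. The level was 1.42-fold higher (log2 fold change 0.50 ± 0.15, edgeR adjusted p = 0.0257). The call ended without HDAC1 vehicle replicates 1 or 3 (0.41 and 0.46) or empty vector vehicle replicate 2 (0.38). With TGFB1 it was at 12.2, 12.5 and 14.6 CPM with HDAC1, against 12.02, 12.8 and 10.1 CPM with the empty vector, which was not called (0.17, 95% interval -0.14 to 0.48). In the RefSeq gene table Dusp5 overlaps a non-coding RNA gene and Spred1 a pseudogene, and the strand setting of the counting is not given in the sources used here, so reads of these pairs cannot be told apart.

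The other 8 genes were not called for HDAC1 in either treatment. In vehicle Spred1, Spry1 and Dusp1 had log2 fold changes of -0.23, -0.26 and -0.26 (edgeR adjusted p = 0.0577, 0.126 and 0.102). For Spred1 and Spry1 all HDAC1 libraries lay below all empty vector libraries, and for Dusp1 the libraries overlapped. Spred1 was called without empty vector vehicle replicate 3 (-0.29) and without empty vector TGFB1 replicate 3 (-0.23). Dusp1 was called without empty vector TGFB1 replicate 3 (-0.25), and both were called when low-count genes were left in (-0.25 for Dusp1 and -0.23 for Spred1). With TGFB1 Dusp6 was at 149, 150.3 and 149.99 CPM with HDAC1, all below 161, 158 and 170 CPM with the empty vector, a difference that was not called (-0.12, 95% interval -0.27 to 0.02, edgeR adjusted p = 0.28). The intervals of Spry4 ran from -0.15 to 0.15 in vehicle and from -0.13 to 0.19 with TGFB1.

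Whether the HDAC1 effect depended on TGFB1 was tested as an interaction. By edgeR 0 of the 10 genes passed, against 0.479% of all genes, and by DESeq2 0 of the 10 passed, against 275 of all genes. An unadjusted edgeR p under 0.05 was reached by 1 of the 10, and by 1887 of all 14601 genes. The 1 of the 10 was Dusp1, with an HDAC1 effect of 0.23 with TGFB1 and -0.26 in vehicle, neither of them called. The difference was 0.49 ± 0.16 (edgeR adjusted p = 0.156). It passed when low-count genes were left in (0.49, edgeR adjusted p = 0.0189).

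The relatives that complete these families were set beside them. Of 5 further MAP kinase phosphatases 3 were tested, and with the empty vector Dusp7, which acts on ERK, rose with TGFB1 (log2 fold change 0.97) while Dusp16, which acts on JNK and p38, fell (-0.42). Dusp7 was at 191 ± 13.5 CPM (SD, as for all later CPM values) with TGFB1 and 97.4 ± 13.0 CPM with vehicle in empty vector cells. It rose in HDAC1 cells too (0.88). Dusp16 was not called there (-0.13, edgeR adjusted p = 0.157), and Dusp8 fell (-0.31, edgeR adjusted p = 0.048), a call that 8 of the alternatives ended, with adjusted p up to 0.203. Spry3 was lower with TGFB1 under both plasmids (-1.49 and -0.95) at levels of 1.89 to 7.78 CPM, as was Spred3 with the empty vector (-0.45). With HDAC1 in vehicle Spred3 fell, at 14.4 ± 0.391 CPM against 17.5 ± 1.11 CPM with the empty vector (-0.28, edgeR adjusted p = 0.0291), although 6 of the alternatives ended that call. Of 11 atypical DUSP genes, 8 were tested. With TGFB1, 2 fell and 0 rose in empty vector cells, and 1 fell and 1 rose in HDAC1 cells. Over all genes 50.9% and 49.1% were called in these comparisons.

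**Figure D3:**
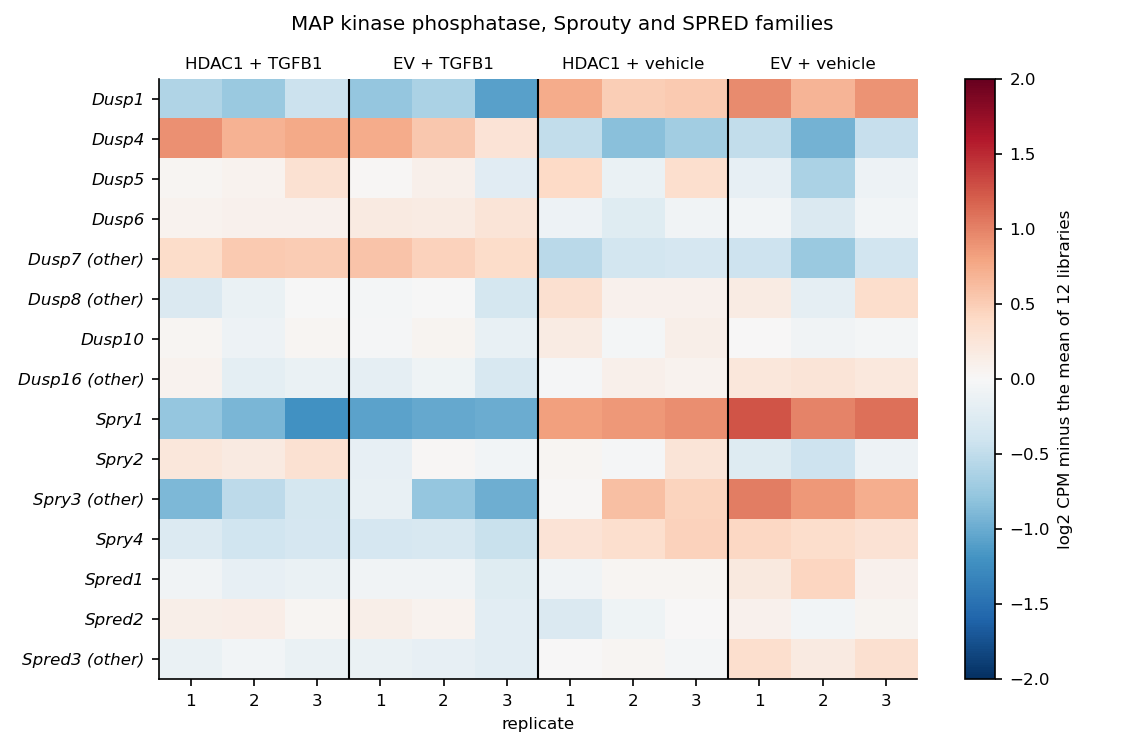
Colours give log2 CPM minus the gene's mean over 12 libraries for 15 genes (rows; "other" marks the 5 relatives outside the list of 10) in the 12 libraries (columns, by group and replicate). Values run from -1.21 to 1.26; Dusp1, Spry1, Spry3 and Spry4 are low and Dusp4 and Dusp7 high in the 6 TGFB1 libraries.

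Upstream of the feedback genes, TGFB1 altered ligands and receptors in both directions. The counts of this and the next lists stand against 50.9% of all genes called for TGFB1 in empty vector cells and 49.1% in HDAC1 cells, and against 14% called for HDAC1 in vehicle and 6.53% with TGFB1. Of 22 tested growth factor and receptor genes 7 rose and 7 fell with the empty vector, and 8 rose and 7 fell with HDAC1. Egfr, the receptor of epidermal growth factor, was at 112 ± 7.98 CPM with TGFB1 and 17.4 ± 1.46 CPM with vehicle in empty vector cells (log2 fold change 2.69), and it rose in HDAC1 cells too (2.65). Its ligand gene Hbegf rose by 2.02 and 1.77, whereas the ligand gene Btc fell (-2.03 and -2.02) and the receptor gene Pdgfra fell as well (-1.003 and -0.76). HDAC1 in vehicle lowered 5 of these genes and raised 1, a count of 6 that became 3 without HDAC1 vehicle replicate 3 and 2 without empty vector vehicle replicate 1. Pdgfrb, a receptor of platelet-derived growth factor, was at 23.4 ± 2.14 CPM with HDAC1 and 41.1 ± 3.69 CPM with the empty vector (-0.81), and the neuregulin gene Nrg1 was at 12.3 ± 1.17 CPM with HDAC1 and 6.95 ± 1.13 CPM with the empty vector (0.81).

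Inside the cascade, 6 of 20 tested RAS, RAF, MEK and ERK genes rose and 4 fell with TGFB1 and the empty vector, and 9 rose and 4 fell with HDAC1. The 13 calls with HDAC1 became 8 without HDAC1 vehicle replicate 2. Hras (0.55) and the MEK gene Map2k1 (0.33) rose and Rras2 (-0.30) fell with the empty vector. With HDAC1 Map2k1 rose (0.40) and the ERK gene Mapk3 fell (-0.43). Of 14 JNK and p38 genes 2 rose and 3 fell with the empty vector, and 2 rose and 4 fell with HDAC1. Map2k6, which activates p38, fell with TGFB1 in HDAC1 cells (edgeR adjusted p = 0.000484) but lay near the counting floor there, with 0.0738 ± 0.0169 CPM with TGFB1 and 0.611 ± 0.0446 CPM with vehicle. Its 3 libraries with TGFB1 held 5 counts in all and the 3 with vehicle 54, a ratio of 0.124 (95% counting interval 0.0387 to 0.307). The JNK gene Mapk8 rose (0.47 and 0.52) and the stress kinase gene Map3k5 fell (-0.60 and -0.48) under both plasmids. HDAC1 itself left 18 of 20 and 14 of 14 of these lists uncalled in vehicle, with the RAS relative Mras (-0.29) and the adaptor gene Shc1 (-0.27) lower. Both of these calls ended without HDAC1 vehicle replicates 1 or 3 or empty vector vehicle replicate 1, with Mras at -0.24, -0.25 and -0.24 and Shc1 at -0.22, -0.23 and -0.23. With TGFB1, HDAC1 lowered Mapk3 (-0.28) and the JNK gene Mapk10, which was at 0.432 ± 0.0413 CPM with HDAC1 and 1.51 ± 0.187 CPM with the empty vector (-1.79, edgeR adjusted p = 0.022). The Mapk3 call ended without HDAC1 TGFB1 replicates 1 or 3 (-0.23 and -0.30) or empty vector TGFB1 replicates 1 or 3 (-0.30 and -0.23). The Mapk10 call ended without HDAC1 TGFB1 replicates 1, 2 or 3 (-1.73, -1.86 and -1.80) or empty vector TGFB1 replicate 1 (-1.81). Brain transcripts, which summed to 65.2 to 72.5 CPM with HDAC1 and 109 to 120 CPM with the empty vector, differed in the same direction, and their part in this was not tested.

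Other brakes on RAS and receptors were also split. Of 15 genes, all tested, 8 rose and 4 fell with TGFB1 and the empty vector, and 7 rose and 5 fell with HDAC1, against 25.9% of all genes rising and 25% falling in the first setting. The 12 calls with the empty vector became as few as 8 under other settings and 9 when single libraries were left out. With HDAC1 the 12 calls stayed at 12 under other settings and became 11 at the lowest when single libraries were left out. Lrig1, a membrane protein that promotes receptor breakdown, was at 20.1 ± 1.23 CPM with TGFB1 and 77.5 ± 7.21 CPM with vehicle in empty vector cells (log2 fold change -1.95), and it fell in HDAC1 cells too (-1.87). Rasa1, a RAS GTPase activator, rose (0.80 and 0.76), as did Erf, an ETS repressor that ERK controls (0.71 and 0.63). Dok1, an adaptor that recruits RAS inhibitors, fell with TGFB1 (-0.66 and -0.81). It was also the 1 gene of this list called for HDAC1, lower both with TGFB1 (-0.39) and in vehicle (-0.23), and 8 of the alternatives ended the call in vehicle.

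Genes known to respond to ERK gave no common direction either. Among them Fos, Fosb, Egr2 and Egr3 were high in HDAC1 vehicle replicate 1 alone (58.7, 61.1, 12.8 and 28.9 CPM), against at most 3.13, 6.27, 4.52 and 1.94 CPM in the other 11 libraries. Of 21 tested, 7 rose and 7 fell with TGFB1 and the empty vector, and 7 rose and 8 fell with HDAC1. Phlda1 (1.65 and 1.52), Myc (1.33 and 1.10) and the urokinase receptor gene Plaur (1.04 and 0.95) rose under both plasmids. Etv1, an ETS factor, was at 5.13 ± 0.176 CPM with TGFB1 and 34.4 ± 3.53 CPM with vehicle in empty vector cells (-2.74), and it fell in HDAC1 cells (-2.90). HDAC1 raised the AP-1 gene Jun in vehicle (365 ± 31.0 CPM with HDAC1 and 271 ± 38.1 CPM with the empty vector, 0.43) and with TGFB1 (193 ± 8.77 CPM with HDAC1 and 147 ± 12.1 CPM with the empty vector, 0.39), and it raised Myc in vehicle (0.31). The Jun call with TGFB1 ended without HDAC1 TGFB1 replicates 1 or 3 (0.40 and 0.35) or empty vector TGFB1 replicates 1 or 3 (0.36 and 0.34). The Myc call ended without HDAC1 vehicle replicates 1 or 3 (0.28 and 0.28) or empty vector vehicle replicate 2 (0.27).

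**Figure D4:**
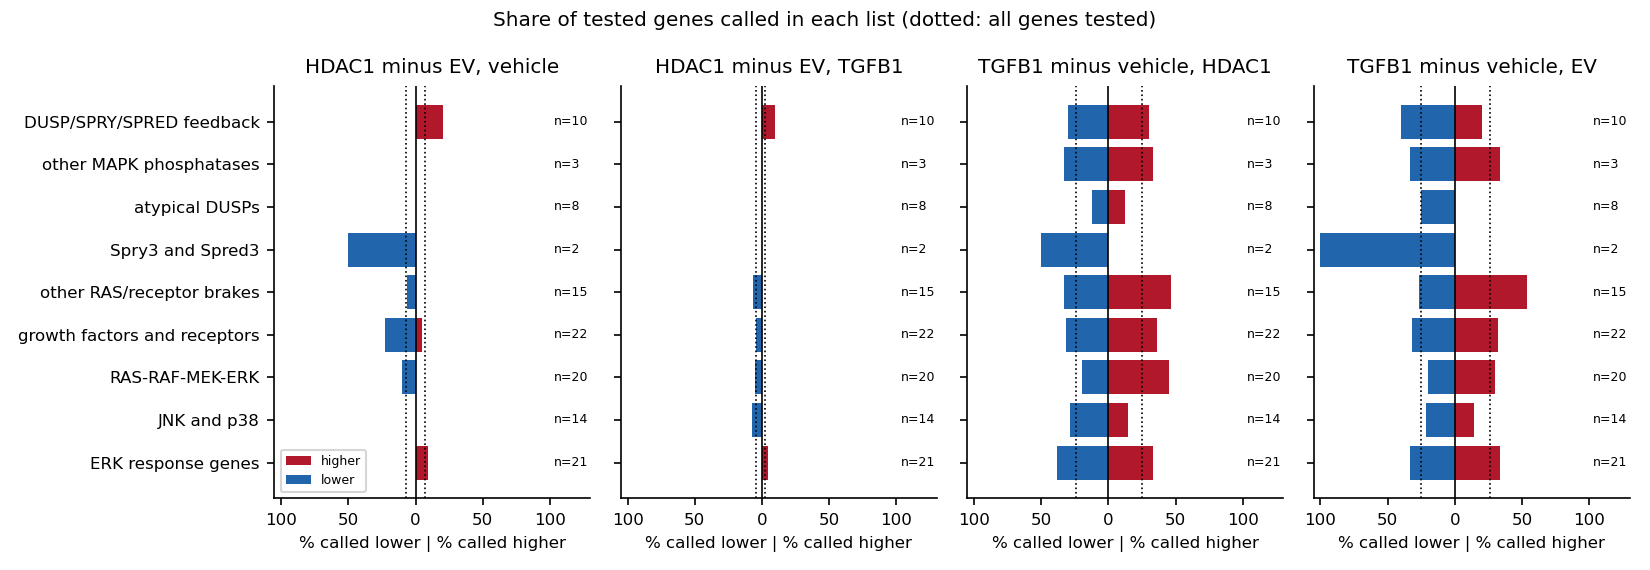
Bars give the share of tested genes of each list (n beside them) called lower (left, blue) or higher (right, red) in 4 comparisons, and dotted lines the same shares over all genes tested. In the TGFB1 comparison with the empty vector, the 10 feedback genes had 4 called lower and 2 higher, beside all-gene shares of 25% and 25.9%.

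The genes whose levels ran most like those of the feedback genes over the 12 libraries were listed for each of the 9 genes called at least once. Vehicle and TGFB1 libraries form separate sets for most of these genes, so the correlations describe that split and carry no test. Spry1 ran closest to Dipk1a (Pearson r = 0.9941 of log2 CPM), Fhip1a and Apol7al1, and Spry4 to Uaca (0.9943), Tfap2a and Mgat3. Dusp1 ran closest to Abca2 (0.9936), Csf1 and Otud3, and Dusp4 to Rrp1b (0.9899), Antxr2 and Pdcd6ip. For genes with little TGFB1 response the best values were lower, as for Spry2 with Plcl1 (0.9354) and Dusp5 with Epc1 (0.919). Among the 10 genes themselves, Spry1 and Spry4 were closest (0.982), and Spry1 and Dusp4 ran most opposite (-0.937).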

How the data were processed

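The submitters' processing notes list Trim Galore 0.6.7, featureCounts of Subread 2.0.1 and DESeq2 1.44. They name the build mm10, although the gene identifiers belong to rat. Aligner, annotation and strand setting are not given in the sources used here. The authors deposited raw counts for 43360 genes, used in all tests. The authors also deposited a normalized signal for 14275 genes, equal in its values to the counts divided by 1 constant per library, which served to find genes by name. Of the tested genes, 1909 had no symbol.

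Groups follow the titles, since the treatment labels number TGFB1 to TGFB6. Genes passing filterByExpr of edgeR 4.0.16 (R 4.3.3) were scaled with TMM and fitted by a robust quasi-likelihood model with 1 mean per group (8 residual degrees of freedom, common biological variation 7.61%). Tests were two-sided. Standard errors are the absolute log2 fold change over the root of F, and log2 CPM used a prior count of 2. The value after ± is the SE for a log2 fold change and the SD between libraries of a group for CPM. The steps were tested on simulated data. The 10 genes, the gene lists and the tests were chosen with earlier results of these data known. Named genes are the 10, up to 4 called genes per list and comparison with the smallest adjusted p (a few are also given in the other comparisons), and the 3 closest in pattern. Alternatives were DESeq2 1.42.0, other scalings and filters, 2-group fits, blocking by replicate number, and omission of single libraries. Intervals are 95% intervals, and counting errors cover counting only.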

Additional observations from a re-analysis of the deposited data

How the results depend on the processing

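The TGFB1 calls of Dusp1, Dusp4, Spry1 and Spry4 under both plasmids, and of Dusp6 and Spred1 with the empty vector, held under every alternative run, and no called value of the 10 genes changed sign. Without a filter on low counts, 30321 genes were tested. Of the 10 genes, 4 were then called for HDAC1 in vehicle, beside 2204 of all genes, and 1 for the interaction, beside 479. With the filter kept, DESeq2 called 275 of all genes for the interaction. Leaving out 1 library, the 10 genes gave 0 to 4 calls for HDAC1 in vehicle, 0 to 1 for HDAC1 with TGFB1, 6 to 7 for TGFB1 with the empty vector, 4 to 7 for TGFB1 with HDAC1 and 0 to 0 for the interaction. Over all genes the counts were 1144 (without HDAC1 vehicle replicate 1) to 2679, 237 (without HDAC1 TGFB1 replicate 1) to 1251, 6633 to 7511, 6210 to 7657, and 3 (without HDAC1 TGFB1 replicate 3) to 257 (without empty vector vehicle replicate 3). The causes were not tested. Replicate numbers gave little sign of pairing. After subtracting group means of log2 CPM, same-numbered libraries of different groups correlated at -0.0875 to 0.118 (median -0.012). Libraries with different numbers correlated at -0.115 to 0.0921 (median 0.018). With a replicate block 2, 1, 6, 5 and 0 of the 10 genes and 1790, 784, 7197, 6915 and 98 of all genes were called in these comparisons, and the 1 call lost was that of Spred2 (0.22, edgeR adjusted p = 0.0616). Depth limits Spry1 most, with 67 counts in its lowest library.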

Other observations

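Within groups, the phosphatase genes Dusp1, Dusp4, Dusp5 and Dusp10 tended to be high or low in the same libraries, a set of 4 chosen after the values were seen. After subtracting each group's mean log2 CPM, the 6 correlations among them over 12 libraries (8 degrees of freedom) ran from 0.692 to 0.858, with a median of 0.766. The other 39 pairs of the 10 genes ran from -0.796 to 0.697, with a median of 0.228. The mean deviation of the 4 genes on the log2 scale was lowest in empty vector vehicle replicate 2 (-0.213), empty vector TGFB1 replicate 3 (-0.199) and HDAC1 vehicle replicate 2 (-0.174), and highest in HDAC1 vehicle replicate 1 (0.153). The first of these libraries had the lowest total (18397093 counts) and the last the highest (36652084 counts). The last, HDAC1 vehicle replicate 1, was also the library with high Fos (58.7 CPM). HDAC1 TGFB1 replicate 1, with 18661922 counts, was at 0.0145. The part of depth or of the high early genes in this was not tested.

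Correlations with the mean deviation of the 4 genes were highest, within their lists, for the AP-1 gene Jun (r = 0.897) and the neuregulin gene Nrg1 (0.923). The same held for the receptor inhibitor gene Il17rd (0.9), at group means of only 0.824 to 1.64 CPM, and for Dusp8 (0.842). The ERK response genes ran down to -0.509 (Etv1), the growth factor and receptor genes to -0.521 (Pdgfb) and the other brakes to -0.592 (Dok1). Among the further phosphatases the lowest value was 0.14 (Dusp16). Over 21 tested ERK response genes the median was 0.504, against 0.0442 over 14591 tested genes, which ranged from -0.942 to 0.961. Other lists lay above the all-gene median too: further phosphatases at 0.438, other brakes at 0.375, JNK and p38 genes at 0.2785, and Spry3 with Spred3 at 0.2555. Medians were 0.084 for growth factor and receptor genes, 0.045 for RAS, RAF, MEK and ERK genes and 0.0148 for atypical DUSP genes. Fos (0.434), Junb (0.386) and Ier2 (0.147) lay lower than Jun and Egr1 (0.699). Spred1 and Dusp6 had the most opposite deviations of any pair of the 10 (-0.796). These values share their libraries and carry no test.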
